A study of Homo sapiens with 6 samples.

Results

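The genes that trim, branch and cap N-glycans were compared in LX-2 cells with a mutation in exon 3 of MPI (MPI MT) and in wild-type LX-2 cells (WT), with 3 RNA-seq libraries of each. LX-2 is an immortalised line of human hepatic stellate cells, the collagen-producing cells of the liver. The members were 33 named genes, all 33 of which had a row among the 17911 genes of the deposited table: glucosidases, ER folding sensors and lectins, mannosidases, branching N-acetylglucosaminyltransferases, galactosyltransferases, sialyltransferases and deglycosylating enzymes. Both genotypes were grown in the same medium with serum. The labels give neither the sequence change in MPI nor whether the mutant line is 1 clone, so a difference between genotypes cannot be told apart from a difference between lines. Nor do they state whether the 3 libraries of a genotype are separate cultures; the p-values reflect only how these libraries spread, and that spread may be technical.

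N-linked glycans reach proteins in the endoplasmic reticulum (ER) as a ready-made, glucose-capped and mannose-rich oligosaccharide. Glucosidases remove the glucose caps, and the partly trimmed glycan is held by the lectin chaperones calnexin and calreticulin until the protein is folded. Mannosidases of the ER and Golgi then cut the mannose core back, N-acetylglucosaminyltransferases start new branches on it, and galactose and sialic acid cap those branches. MPI, mannose phosphate isomerase, lies upstream of this route, where it links the phosphates of fructose and mannose and so feeds mannose into glycan precursors. Stellate cells secrete matrix proteins that carry such glycans.

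The mutated gene, MPI, on GRCh38 chromosome 15 at 74890005 to 74902219 (ENSG00000178802), measured 1051, 978 and 1035 in the MPI MT libraries, against 1292, 1283 and 1256 in the WT libraries, in normalised read counts, that is, reads divided by the size factor of the library. The libraries did not overlap, and MPI fell (log2 fold change ± SE of -0.32 ± 0.07, limma-trend adjusted p = 0.00648). Fold changes, here and below, are MPI MT over WT on log2(value + 1), and a gene passed where its adjusted p was under 0.05. The counts cover the whole gene and do not show what the mutated exon encodes. The libraries held 27037905 to 34970840 reads over the listed genes. In a principal component analysis, genotype lay on the first component (71.8% of the variance) and the library numbered 1 of each genotype stood apart from the others on the second (15.9%). Of 10 stellate cell and fibroblast markers 9 had a row, with a summed level per length of 4457 to 5059 TPM (reads per exon length, scaled to the same sum in every library) in MPI MT and 3999 to 4101 TPM in WT libraries. VIM (0.27 ± 0.08) and TIMP1 (0.94 ± 0.12) rose and ACTA2 (-0.97 ± 0.10), COL1A2 (-1.37 ± 0.38) and PDGFRB (-0.47 ± 0.15) fell. VIM was the largest part of the sum, with a mean of 2441 TPM in MPI MT and 2156 TPM in WT. TIMP1 had a mean of 769 TPM in MPI MT and 426 TPM in WT, and the markers that fell add little to the sum. Among markers of other liver cells, those of hepatocytes (1 of 6 with a row, and none for ALB) summed to 1.5 to 2.70 TPM in MPI MT and 4.0 to 4.63 TPM in WT libraries. Endothelial markers (3 of 5) summed to 2.06 to 2.59 TPM in MPI MT and 0.833 to 0.989 TPM in WT, and those of leukocytes and Kupffer cells (4 of 6) to 15.9 to 16.8 TPM in MPI MT and 30.8 to 36.2 TPM in WT. Among the leukocyte and Kupffer cell markers CD14 fell (-1.72 ± 0.11), while CD68 (0.74 ± 0.24) and LYZ (2.79 ± 0.41) rose. Those of cholangiocytes (3 of 4) summed to 87.1 to 97.3 TPM in MPI MT and 63.8 to 70.9 TPM in WT, of which SOX9, which rose (0.68 ± 0.08), made up most. All libraries are labelled LX-2, so these sums describe RNA of that culture and do not count other liver cells. The part of these markers in the results was not tested. In bulk RNA, fewer cells expressing a gene and less RNA per cell cannot be told apart.

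Of the 33 members, 9 rose in MPI MT (27.3%) and 4 fell (12.1%), while 20 did not pass. Among all 17893 tested genes, 16.0% rose and 16.6% fell. Counts by step or list below rest on few genes each and are to be read beside these shares. The members' share past the test, 39.4%, lay near the 32.6% of all tested genes and the 38.0% of genes with a mean of at least 50, which 31 members reached. The median log2 fold change of the members was 0.01, against -0.0031 over all tested genes, and their median absolute log2 fold change was 0.24, against 0.26. Rises were thus a larger share, and falls a smaller one, than over the table, which is a description of a chosen list and not a test. With the replicate number of the labels as a block, 13 members rose and 7 fell, where 25.1% of all genes rose and 24.6% fell. MPI MT and WT libraries did not overlap for 11 members on the higher side (33.3%) and 8 on the lower (24.2%), against 23.1% and 23.6% of all tested genes. Of the called members 1, MAN2A1, moved by over 0.5 on the log2 scale, and 10.0% of tested genes moved more than it did.

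**Figure D1:**
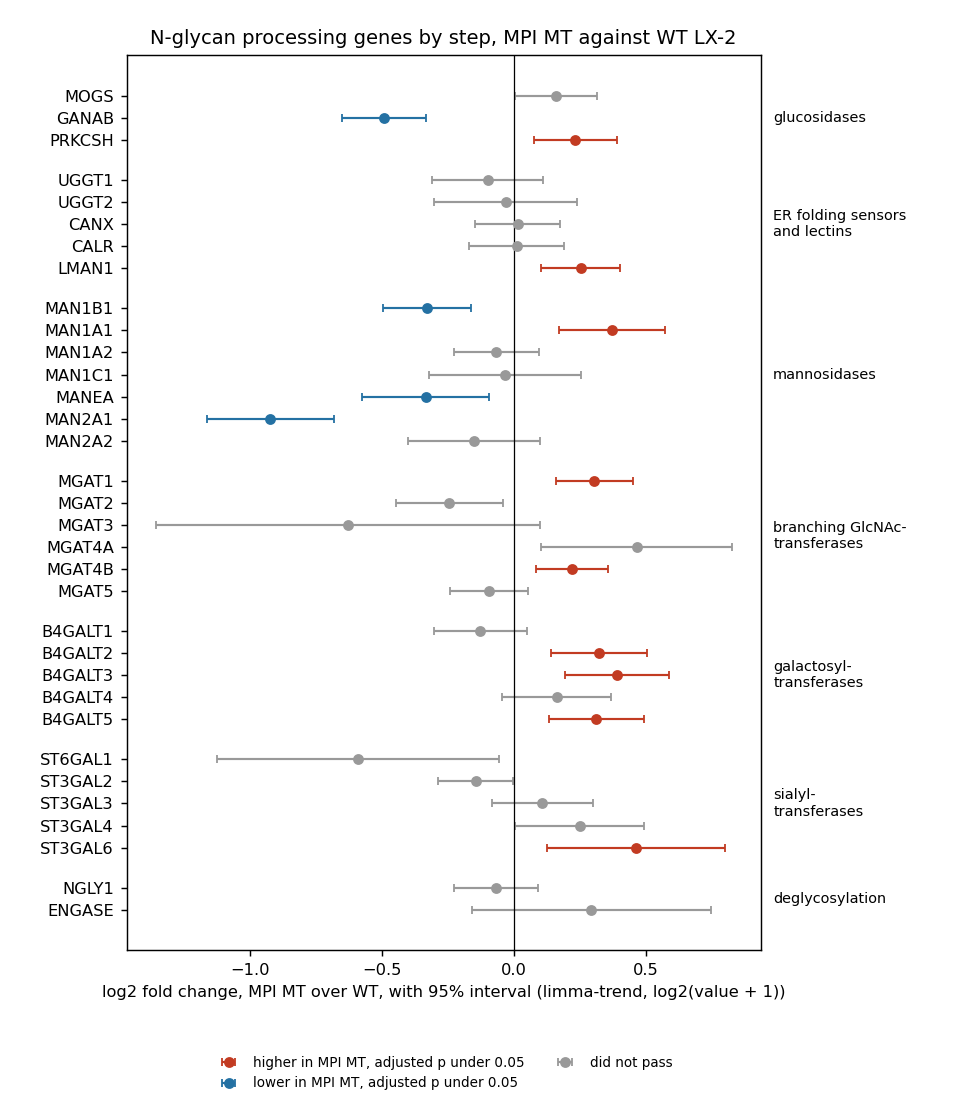
Log2 fold change of MPI MT over WT (x axis, limma-trend on log2(value + 1)) with its 95% interval for the 33 genes, in the order of their steps. Red points passed the test as higher in MPI MT (9 genes), blue as lower (4) and grey did not pass (20); MAN2A1 lies farthest to the left among the coloured points.

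Levels were compared between genes per length, as TPM over the listed genes with merged exon lengths. Being scaled to the sum over all genes, TPM sets MPI MT slightly lower against WT than the size factors do, so fold changes and tests rest on the normalised counts; CANX, for example, lay lower in MPI MT per TPM and level with WT in normalised counts. The lectin chaperone genes CALR, with 1052 ± 50.1 TPM in MPI MT and 1114 ± 78.3 TPM in WT (mean ± SD, n = 3 libraries each), and CANX, with 549 ± 7.63 TPM in MPI MT and 579 ± 16.0 TPM in WT, stood highest. The glucosidase II genes followed, GANAB with 371 ± 22.7 TPM in MPI MT and 556 ± 37.9 TPM in WT and PRKCSH with 272 ± 0.885 TPM in MPI MT and 247 ± 15.6 TPM in WT. The most abundant branching enzyme gene was MGAT4B (177 ± 5.31 TPM in MPI MT and 162 ± 5.69 TPM in WT), the most abundant galactosyltransferase gene B4GALT5 (159 ± 6.03 TPM in MPI MT and 136 ± 8.25 TPM in WT) and the most abundant mannosidase gene MAN1A1 (65.4 ± 8.57 TPM in MPI MT and 53.7 ± 4.25 TPM in WT). Sialyltransferase genes were lower, led by ST3GAL2 (16.1 ± 0.401 TPM in MPI MT and 19.0 ± 0.339 TPM in WT). RNA levels, and sums of them below, do not show how far each galactosyltransferase or sialyltransferase acts on N-glycans rather than on other glycans. ST6GAL1 and MGAT3 were near the bottom of the table, at 0.291 ± 0.0466 TPM in MPI MT and 0.474 ± 0.0702 TPM in WT for ST6GAL1 and 0.184 ± 0.0471 TPM in MPI MT and 0.311 ± 0.0313 TPM in WT for MGAT3, from 19 to 41 and from 6 to 14 reads per library.

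**Figure D2:**
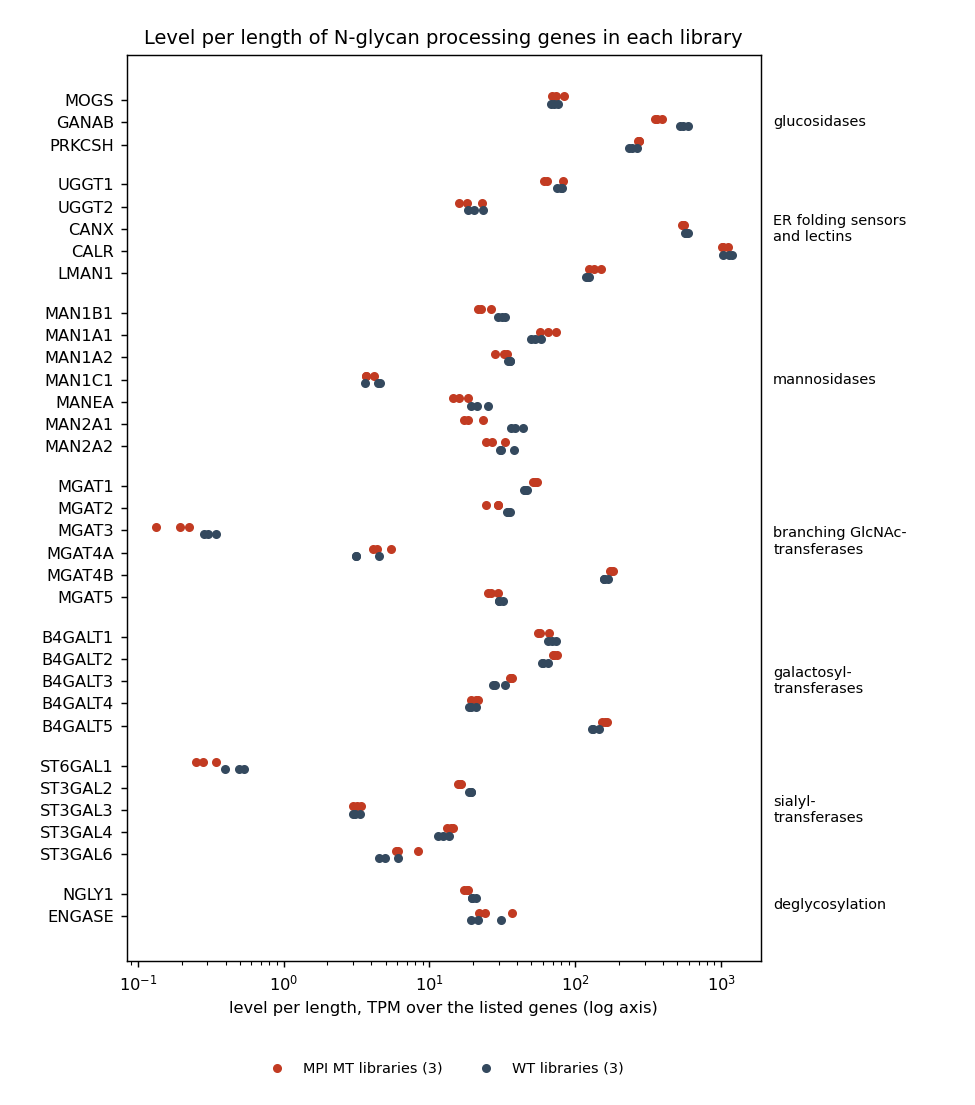
Level per length (x axis, TPM over the listed genes, log axis) of the 33 genes in each library, red for the 3 MPI MT and dark blue for the 3 WT libraries. Levels span from under 1 TPM (MGAT3, ST6GAL1) to CALR at the right-hand end, and for most genes the genotypes lie close together on this scale.

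At the glucose-trimming step the subunits of glucosidase II moved apart. GANAB (ENSG00000089597, chromosome 11, 62624826 to 62646726, minus strand), the catalytic alpha subunit that removes the inner glucoses, measured 15759, 15354 and 15051 in the MPI MT libraries, against 22956, 21271 and 20806 in the WT libraries. Every MPI MT library lay below every WT library, and GANAB was 29.0% lower in MPI MT (-0.49 ± 0.07, limma adjusted p = 0.00104). PRKCSH (ENSG00000130175, chromosome 19, 11435288 to 11450968, plus strand), the beta subunit that keeps the enzyme in the ER, measured 11082, 11785 and 11977 in the MPI MT libraries, against 10405, 9749 and 9506 in the WT libraries. Here every MPI MT library lay above every WT library, and PRKCSH rose (0.23 ± 0.07, limma adjusted p = 0.0317). That call did not hold without MPI MT replicate 2 or 3 or WT replicate 2 or 3, with limma adjusted p from 0.116 to 0.12 in those fits. Per length, the ratio of GANAB to PRKCSH was 1.46, 1.34 and 1.29 in the MPI MT libraries, against 2.27, 2.24 and 2.25 in the WT libraries. The WT ratios hardly differed from each other, and all MPI MT ratios were lower. MOGS, glucosidase I, which takes off the outermost glucose, measured 2360.4, 2206 and 2123 in the MPI MT libraries, against 2076, 1984 and 1932 in the WT libraries. Its libraries did not overlap but it did not pass (0.16 ± 0.07, limma adjusted p = 0.11), whereas it passed with the replicate block (limma adjusted p = 0.0234).

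The promoters of both glucosidase II genes are shown because the genes moved in opposite directions. They span 250 bases before to 50 after the RefSeq gene start (GRCh38.p14, RefSeq), GANAB at chr11:62646564-62646863 (minus strand) and PRKCSH at chr19:11435385-11435684 (plus strand), with CCAAT boxes (CCAAT) and GC boxes (GGGCGG), on either strand, in capitals.
GANAB: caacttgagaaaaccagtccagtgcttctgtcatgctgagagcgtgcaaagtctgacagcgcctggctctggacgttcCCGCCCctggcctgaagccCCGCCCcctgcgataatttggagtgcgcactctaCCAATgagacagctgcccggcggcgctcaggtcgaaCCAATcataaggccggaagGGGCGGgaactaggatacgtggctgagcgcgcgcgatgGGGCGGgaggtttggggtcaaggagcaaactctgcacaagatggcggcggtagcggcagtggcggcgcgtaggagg
PRKCSH: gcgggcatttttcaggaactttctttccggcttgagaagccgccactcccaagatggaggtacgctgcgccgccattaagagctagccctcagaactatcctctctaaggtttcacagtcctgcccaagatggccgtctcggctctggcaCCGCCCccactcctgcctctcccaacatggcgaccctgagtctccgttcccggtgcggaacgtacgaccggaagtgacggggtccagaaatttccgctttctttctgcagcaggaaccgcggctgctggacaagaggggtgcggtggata
GANAB held 2 CCAAT boxes and 4 GC boxes, and PRKCSH no CCAAT box and 1 GC box. Promoter sequences were found for 28 members, all but MOGS, MAN1A2, MGAT3, MGAT4A and ST3GAL2. A CCAAT box was in 13 of those 28 (46.4%), against 36.3% of 15812 promoters of protein-coding genes. A GC box was in 23 of 28 (82.1%), against 58.5%. The protein-coding promoters were not limited to genes with a row, as all members had, and the part of expression in these shares was not tested. These are matches of letters in a window, not binding sites.

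The ER folding sensors and lectins, which the trimmed glycan meets next, showed 1 change among their 5 genes, in the cargo receptor LMAN1. The calnexin cycle genes UGGT1, UGGT2, CANX and CALR did not pass. CALR, calreticulin, the soluble lectin chaperone, measured 23825, 23314 and 23564 in the MPI MT libraries, against 21317, 24773 and 24247 in the WT libraries, and the libraries overlapped (0.01 ± 0.08, 95% interval -0.17 to 0.19, limma adjusted p = 0.934). CANX, calnexin, the membrane-bound chaperone, measured 27010.1, 29150.2 and 28712 in the MPI MT libraries, against 26997, 28759 and 28280.0 in the WT libraries (0.01 ± 0.07, 95% interval -0.15 to 0.17, limma adjusted p = 0.9). These intervals bound a difference to about the size of the change in PRKCSH or less in either direction; both genes changed sign under some alternatives and passed in none. UGGT1, which puts a glucose back on misfolded proteins and so returns them to the chaperones, measured 7396, 6057 and 5899.6 in the MPI MT libraries, against 6986, 6956 and 6682 in the WT libraries. MPI MT replicate 1 was the highest of its libraries and the other MPI MT libraries were the lowest (-0.10 ± 0.09, limma adjusted p = 0.445), and without that library UGGT1 was -0.20 (limma adjusted p = 0.0142). Its relative UGGT2 measured 1269 ± 190.0 in MPI MT and 1291 ± 128 in WT and did not pass (-0.03 ± 0.12). LMAN1, the mannose-binding receptor that carries glycoproteins such as clotting factors out of the ER, measured 8047, 7638 and 7198 in the MPI MT libraries, against 6464, 6399.9 and 6311 in the WT libraries. All MPI MT libraries were above all WT libraries and LMAN1 rose (0.25 ± 0.07, limma adjusted p = 0.0186), a call that was lost without MPI MT replicate 2, WT replicate 2 or WT replicate 3 (limma adjusted p 0.0711 to 0.0724).

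The promoters of CANX and CALR are shown because both hold an ER stress element (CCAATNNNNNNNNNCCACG, searched on both strands, in capitals), the element through which ER stress is known to raise chaperone genes. They lie at chr5:179698679-179698978 (plus strand) and chr19:12938359-12938658 (plus strand) (GRCh38.p14, RefSeq); the match in CALR is on the opposite strand.
CANX: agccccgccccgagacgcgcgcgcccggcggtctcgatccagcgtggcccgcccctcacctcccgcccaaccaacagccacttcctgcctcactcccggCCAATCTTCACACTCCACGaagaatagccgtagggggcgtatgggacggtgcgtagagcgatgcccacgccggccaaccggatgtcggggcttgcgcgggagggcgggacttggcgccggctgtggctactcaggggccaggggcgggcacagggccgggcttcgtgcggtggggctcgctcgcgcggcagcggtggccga
CALR: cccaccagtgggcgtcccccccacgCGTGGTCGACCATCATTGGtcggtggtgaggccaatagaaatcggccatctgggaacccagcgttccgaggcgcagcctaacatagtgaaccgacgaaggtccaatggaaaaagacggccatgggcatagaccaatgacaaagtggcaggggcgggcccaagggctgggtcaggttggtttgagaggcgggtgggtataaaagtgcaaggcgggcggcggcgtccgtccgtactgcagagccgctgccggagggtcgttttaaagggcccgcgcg
The element was in 2 of the 28 member promoters (7.14%), these 2, and in 0.120% of protein-coding promoters, again not limited to genes with a row. It contains a CCAAT box, so the counts of both motifs overlap. Exact letters in this window are all that was searched.

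Of the 7 mannosidase genes 1 rose and 3 fell, where 16.0% of all tested genes rose and 16.6% fell. MAN2A1 (ENSG00000112893, chromosome 5, 109689366 to 109869625, plus strand), Golgi alpha-mannosidase II, which takes the last mannoses off the way to complex glycans, measured 2194, 1827 and 1719.5 in the MPI MT libraries, against 3948, 3287 and 3619 in the WT libraries. The MPI MT libraries lay far below the WT libraries, and MAN2A1 was 47.1% lower in MPI MT (-0.92 ± 0.11, limma adjusted p = 3.74e-04), from -1.03 to -0.85 over all alternatives. Its relative MAN2A2, which does the same cut, measured 2631, 2262 and 2075 in the MPI MT libraries, against 2920.2, 2384 and 2429 in the WT libraries. Those libraries overlapped (-0.15 ± 0.11, 95% interval -0.40 to 0.10, limma adjusted p = 0.326); MAN2A2 passed as lower with the replicate block (limma adjusted p = 0.0323) and without MPI MT replicate 1 (-0.24, limma adjusted p = 0.0416). Per length, MAN2A1 made up 41.1% ± 0.414 in MPI MT and 54.3% ± 1.27 in WT of the pair's summed level. MAN2A1 was thus the more abundant of the pair in WT and the less abundant in MPI MT, in every library, while the pair's sum was 47.9 ± 7.89 TPM in MPI MT and 72.8 ± 8.07 TPM in WT.

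The promoters of the pair are shown because MAN2A1 had the largest called change and its relative did not pass. They lie at chr5:109689677-109689976 (plus strand) for MAN2A1 and chr15:90902415-90902714 (plus strand) for MAN2A2 (GRCh38.p14, RefSeq), with GC boxes of either strand in capitals.
MAN2A1: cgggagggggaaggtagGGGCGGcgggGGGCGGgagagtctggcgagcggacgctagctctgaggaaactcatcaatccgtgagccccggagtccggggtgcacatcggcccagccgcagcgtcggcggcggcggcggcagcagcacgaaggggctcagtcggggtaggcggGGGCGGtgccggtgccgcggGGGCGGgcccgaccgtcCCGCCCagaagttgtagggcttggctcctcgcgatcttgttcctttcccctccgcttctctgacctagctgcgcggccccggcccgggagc
MAN2A2: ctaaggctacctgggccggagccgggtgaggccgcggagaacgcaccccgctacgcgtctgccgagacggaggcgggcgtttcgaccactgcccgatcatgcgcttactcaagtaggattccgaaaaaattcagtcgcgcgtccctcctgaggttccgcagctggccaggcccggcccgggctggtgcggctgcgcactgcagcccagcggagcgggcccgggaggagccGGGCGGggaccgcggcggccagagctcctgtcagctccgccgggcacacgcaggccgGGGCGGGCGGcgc
MAN2A1 held 5 GC boxes and MAN2A2 held 3, of which 2 overlap, and neither held a CCAAT box.

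The class I mannosidases, which act before this, changed in both directions. MAN1B1, the mannosidase whose trimming also marks misfolded glycoproteins for degradation, measured 1731, 1571 and 1519 in the MPI MT libraries, against 2092, 2023 and 1935 in the WT libraries. Its MPI MT libraries were all below the WT libraries, and it fell (-0.33 ± 0.07, limma adjusted p = 0.00955). MAN1A1, a Golgi mannosidase, measured 2949, 2723 and 2438 in the MPI MT libraries, against 2044, 2248 and 1966 in the WT libraries and rose without overlap (0.37 ± 0.09, limma adjusted p = 0.0128), though not without WT replicate 3 (limma adjusted p = 0.0568). MAN1A2 and MAN1C1, Golgi enzymes with the same activity, did not pass, at 2516 ± 181 in MPI MT and 2629 ± 12.6 in WT for MAN1A2 and 287 ± 30.3 in MPI MT and 294 ± 32.6 in WT for MAN1C1. MAN1A2 has a processed pseudogene, so its count is less certain. Per length, MAN1A1 made up 52.6% ± 1.14 in MPI MT and 43.2% ± 1.44 in WT of the summed level of these 4 genes, and MAN1B1 18.9% ± 0.591 in MPI MT and 25.2% ± 0.883 in WT. Their sum, 124 ± 13.6 TPM in MPI MT and 124 ± 6.51 TPM in WT, overlapped between genotypes. MANEA, the Golgi endomannosidase that offers a way round the glucosidases, measured 751, 694 and 644 in the MPI MT libraries, against 1000.0, 849 and 793 in the WT libraries and fell (-0.33 ± 0.11, limma adjusted p = 0.0398). This call was lost without MPI MT replicate 2 or 3 or WT replicate 1 or 2 (limma adjusted p 0.0908 to 0.137).

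**Figure D3:**
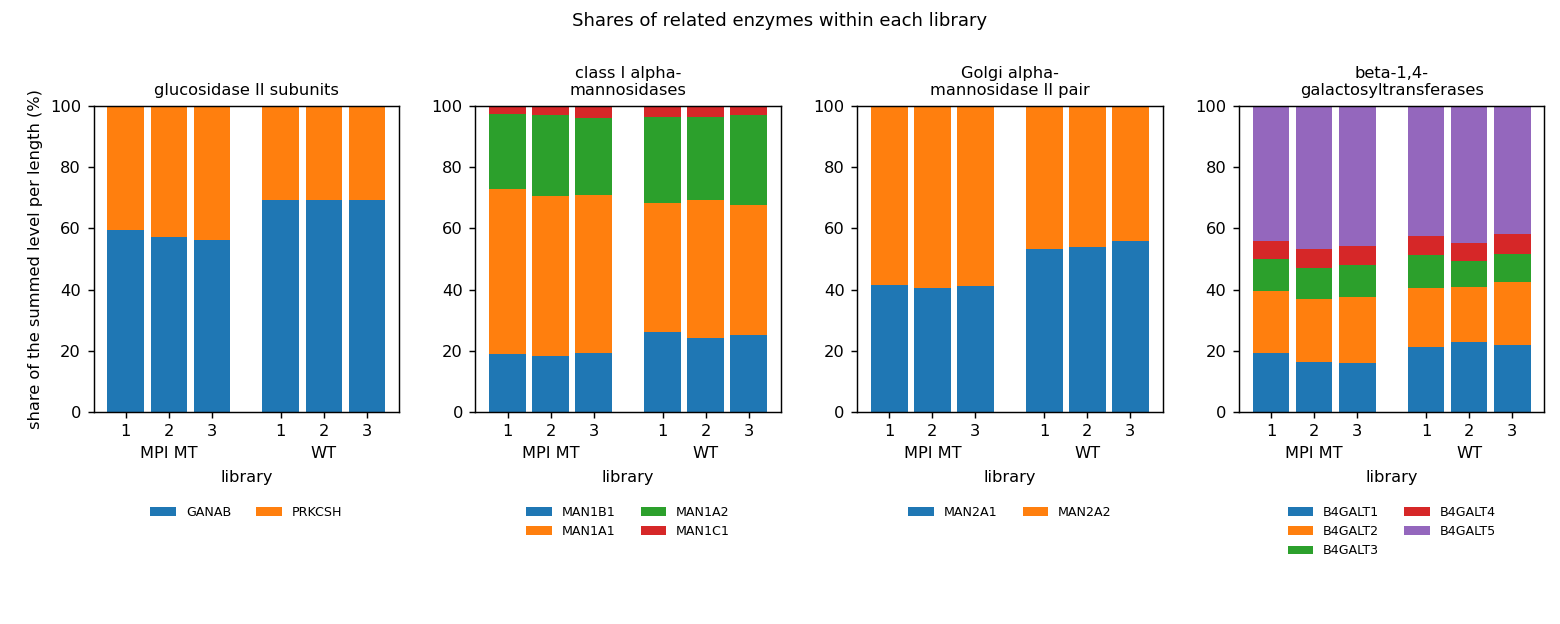
Share of each gene in the summed level per length (y axis, %) of 4 groups of related enzymes, in the MPI MT libraries 1 to 3 (left bars) and the WT libraries 1 to 3 (right bars). The share of GANAB, MAN1B1 and MAN2A1 is smaller in all 3 MPI MT libraries than in all 3 WT libraries, as is that of B4GALT1 among the galactosyltransferases.

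Of the 6 branching genes 2 rose. MGAT1, which adds the N-acetylglucosamine that opens the route to hybrid and complex glycans, measured 4819, 5275 and 5082 in the MPI MT libraries, against 3964, 4192 and 4124 in the WT libraries. The MPI MT libraries were all higher and MGAT1 rose (0.30 ± 0.06, limma adjusted p = 0.00728) under every alternative run. MGAT2, which starts the other arm after mannosidase II has acted, measured 625, 662 and 554 in the MPI MT libraries, against 699.6, 738 and 738 in the WT libraries. It lay lower without overlap but did not pass (-0.24 ± 0.09, limma adjusted p = 0.0657); it passed with the replicate block (limma adjusted p = 0.0145), without MPI MT replicate 1 (limma adjusted p = 0.0334) and with upper-quartile rescaling (limma adjusted p = 0.0419). Exons of an antisense gene that is not analysed here cover 91.9% of the exons of MGAT2, and no source used here says whether strand was counted, so reads from either gene cannot be told apart. MGAT2 also has processed pseudogenes.

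MGAT4B, which adds a further branch and was the most abundant gene of the step, measured 7935, 7932 and 8214 in the MPI MT libraries, against 7063, 6717 and 6888 in the WT libraries, and rose (0.22 ± 0.06, limma adjusted p = 0.0231). The call was lost without MPI MT replicate 2 or 3 or WT replicate 2 or 3 (limma adjusted p 0.0765 to 0.104). SQSTM1, on the opposite strand, shares 1.91% of the exonic bases of MGAT4B and measured 11645 ± 1199 in MPI MT and 9547 ± 541 in WT (0.28 ± 0.09, limma adjusted p = 0.0429); the part of shared reads in the change of MGAT4B was not tested. MGAT4A, with the same activity, measured 419, 351 and 335 in the MPI MT libraries, against 333, 234 and 239 in the WT libraries. It did not overlap between genotypes and came just short of the threshold (0.46 ± 0.16, limma adjusted p = 0.0529). It passed with the replicate block (limma adjusted p = 7.76e-04), without WT replicate 1 (0.63, limma adjusted p = 0.0128) and with DESeq2 on the recovered reads (DESeq2 adjusted p = 0.0398). Per length MGAT4A was a small part of the pair, 2.55% ± 0.334 in MPI MT and 2.17% ± 0.390 in WT. MGAT5, whose branch is a preferred site for long galactose-bearing chains, measured 1912 ± 74.8 in MPI MT and 2041 ± 73.7 in WT and did not pass (-0.09 ± 0.06), but passed as lower without both libraries numbered 1 (-0.15, limma adjusted p = 0.0192). MGAT3, which adds the bisecting residue, rested on at most 14 reads per library and did not pass (-0.63 ± 0.32, limma adjusted p = 0.165).

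Of the 5 galactosyltransferase genes 3 rose and 0 fell, where 16.0% of all tested genes rose and 16.6% fell. B4GALT5, the most abundant of them, measured 5688, 6509.5 and 6389 in the MPI MT libraries, against 4699, 5307 and 4948 in the WT libraries, and rose (0.31 ± 0.08, limma adjusted p = 0.0161). B4GALT2 measured 2091, 2279 and 2384 in the MPI MT libraries, against 1729, 1719.6 and 1951 in the WT libraries, and rose (0.32 ± 0.08, limma adjusted p = 0.0153). In both genes all MPI MT libraries were above all WT libraries, but both calls were lost when some single libraries were left out: B4GALT5 without MPI MT replicate 2 or 3 or WT replicate 1 or 3 (limma adjusted p 0.0573 to 0.0739) and B4GALT2 without MPI MT replicate 2 or 3 or WT replicate 1 or 2 (limma adjusted p 0.0539 to 0.0719). B4GALT3 measured 1117, 1157 and 1216 in the MPI MT libraries, against 985, 819.6 and 862 in the WT libraries, and its rise (0.39 ± 0.09, limma adjusted p = 0.0096) was kept in every alternative. The gene PPOX on the opposite strand covers 28.7% of the exonic bases of B4GALT3 and measured 567 ± 75.1 in MPI MT and 449.5 ± 76.5 in WT, so part of its reads may belong to either gene. B4GALT1, the classic enzyme that puts galactose on N-glycan branches, measured 2557, 2357 and 2319 in the MPI MT libraries, against 2423, 2797 and 2685 in the WT libraries, with overlap and no pass (-0.13 ± 0.08, 95% interval -0.30 to 0.05, limma adjusted p = 0.242). Without both libraries numbered 1 it passed as lower (-0.23, limma adjusted p = 4.38e-04). B4GALT4 measured 1214 ± 103 in MPI MT and 1084 ± 83.4 in WT and did not pass (0.16 ± 0.09); it passed without MPI MT replicate 1 (limma adjusted p = 0.0247) and without both libraries numbered 1 (limma adjusted p = 0.00895). Per length, B4GALT1 made up 17.2% ± 1.72 in MPI MT and 21.9% ± 0.865 in WT of the 5 genes' summed level, which was 347 ± 3.25 TPM in MPI MT and 316 ± 8.48 TPM in WT.

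Of the sialyltransferase genes 1 of 5 rose. ST3GAL6 measured 413, 310.4 and 327 in the MPI MT libraries, against 294, 241 and 225 in the WT libraries and passed narrowly (0.46 ± 0.15, limma adjusted p = 0.0419). It did not pass without MPI MT replicate 2 or 3 or WT replicate 2 or 3 (limma adjusted p 0.0541 to 0.141), nor with upper-quartile rescaling (limma adjusted p = 0.0724). DCBLD2, on the opposite strand, shares 3.74% of the exonic bases of ST3GAL6, has far more reads and rose as well, at 34302 ± 1308 in MPI MT and 17999 ± 1164 in WT (0.93 ± 0.08); the part of shared reads in the rise of ST3GAL6 was not tested. ST3GAL2, the most abundant sialyltransferase gene per length, measured 1265, 1332 and 1297 in the MPI MT libraries, against 1427, 1444 and 1433 in the WT libraries. The MPI MT libraries were all lower, with a mean 9.51% below that of WT, and it did not pass (-0.14 ± 0.06, limma adjusted p = 0.109), with a borderline pass under the replicate block (limma adjusted p = 0.0495) and under upper-quartile rescaling (limma adjusted p = 0.0455). ST3GAL4 measured 465, 526 and 548 in the MPI MT libraries, against 392, 425 and 478 in the WT libraries; MPI MT replicate 1 lay below WT replicate 3, and the gene did not pass (0.25 ± 0.11, limma adjusted p = 0.109). It passed with the block (limma adjusted p = 0.0163), without MPI MT replicate 1 (limma adjusted p = 0.0215) and without both libraries numbered 1 (limma adjusted p = 0.0149). ST3GAL3 measured 512 ± 20.9 in MPI MT and 475 ± 22.5 in WT (0.11 ± 0.08). ST6GAL1, the main enzyme of the other common sialic acid linkage on N-glycans in liver, measured only 20.4, 26.3 and 19.4 in the MPI MT libraries, against 37.2, 34.9 and 28.7 in the WT libraries, lower without overlap but short of the test (-0.59 ± 0.23, limma adjusted p = 0.0867). The summed level of the 5 genes was 40.2 ± 1.13 TPM in MPI MT and 40.3 ± 0.370 TPM in WT.

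Neither deglycosylating gene passed. NGLY1, the cytosolic enzyme that takes whole N-glycans off misfolded proteins, measured 1206, 1212 and 1273 in the MPI MT libraries, against 1246, 1259.7 and 1367 in the WT libraries (-0.07 ± 0.07, 95% interval -0.23 to 0.09, limma adjusted p = 0.488). ENGASE, a cytosolic enzyme that cuts within the glycan core, measured 1801, 1254 and 1147 in the MPI MT libraries, against 1450.1, 1025 and 947 in the WT libraries. The library numbered 1 was the highest in both genotypes and the groups overlapped, while the MPI MT library was above the WT library of the same number each time. ENGASE did not pass (0.29 ± 0.20, limma adjusted p = 0.293) but did with the replicate block (limma adjusted p = 6.78e-04). Its fold change was 0.10 without MPI MT replicate 1, 0.48 without WT replicate 1 and 0.17 without WT replicate 3. The library numbered 1 was the highest of its genotype in both genotypes for 12 members and the lowest in both for 6.

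**Figure D4:**
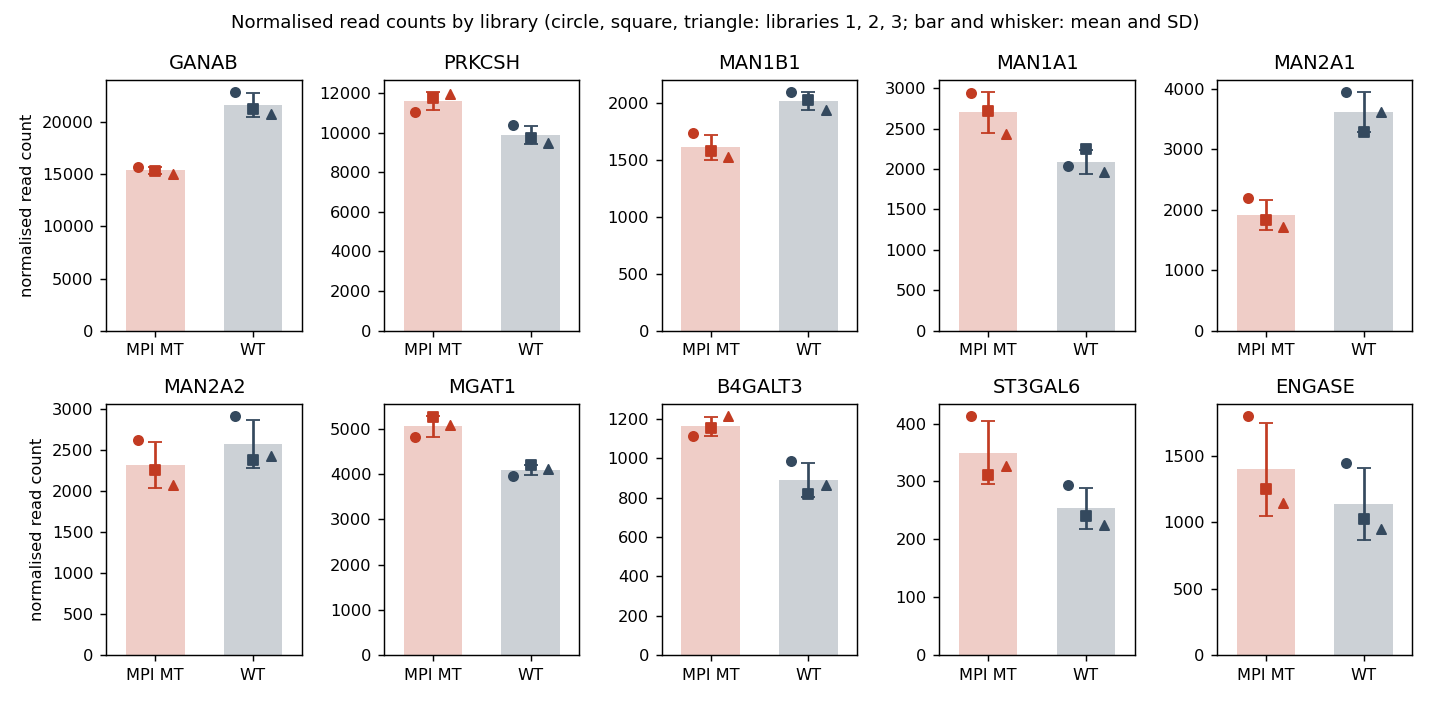
Normalised read counts (y axis, from 0) of 10 genes by genotype, MPI MT in red and WT in dark blue. Markers are libraries 1 to 3, bars the mean and whiskers the SD of 3 libraries. GANAB, MAN1B1 and MAN2A1 are lower in every MPI MT library, PRKCSH, MAN1A1, MGAT1, B4GALT3 and ST3GAL6 are higher in every one, and MAN2A2 and ENGASE overlap.

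Of 47 other genes of the pathway with a row, from lists set by function, 9 rose and 5 fell, 29.8% in all, near the 32.6% of all tested genes. Among 10 genes that make and carry the sugar nucleotides for capping, 2 rose and 0 fell. CMAS, which activates sialic acid to its CMP form, measured 2616, 2978 and 2993 in the MPI MT libraries, against 1802, 1959 and 1935 in the WT libraries, without overlap, and rose (0.59 ± 0.08, limma adjusted p = 6.61e-04). SLC35A2, the Golgi carrier of UDP-galactose, rose too, at 1228 ± 71.6 in MPI MT and 1015 ± 14.5 in WT (0.27 ± 0.07). Among 9 measured branching, extension and capping enzymes outside the members, 4 rose and 1 fell. MGAT5B, a relative of MGAT5 known mainly from brain, fell most, with 715, 706 and 744 in the MPI MT libraries, against 1520.0, 1653 and 1649 in the WT libraries (-1.15 ± 0.07, limma adjusted p = 1.51e-05). GCNT2, which branches galactose-bearing chains, rose (261 ± 25.6 in MPI MT and 169.9 ± 10.3 in WT), as did MANEAL, a relative of MANEA (869.7 ± 132 in MPI MT and 571 ± 35.6 in WT; 0.60 ± 0.12). MANEA itself had fallen, so these relatives were called in opposite directions.

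Of 11 ER lectins, glycan-dependent degradation factors and cargo receptors, 2 rose and 1 fell. EDEM3, which trims mannose from proteins bound for degradation, measured 1688, 1640.0 and 1549 in the MPI MT libraries, against 1185, 1172 and 1152 in the WT libraries and rose (0.47 ± 0.07, limma adjusted p = 9.43e-04). PDIA3, the disulfide isomerase that works with calnexin and calreticulin, fell, at 12876 ± 557 in MPI MT and 15512 ± 247 in WT (-0.27 ± 0.07). MCFD2, the partner of LMAN1 in cargo export, passed narrowly as higher, at 9253 ± 789.6 in MPI MT and 7830.1 ± 169 in WT (0.24 ± 0.08, limma adjusted p = 0.0456). Fits with a library left out are not given for MCFD2, and LMAN1 lost its call in some of them. Of 13 genes that hold glycosyltransferases in the Golgi or keep its ions, 1 rose and 2 fell. COG5 rose (2327 ± 152 in MPI MT and 1886 ± 116 in WT) and COG6, another subunit of the same tethering complex, fell (1364 ± 91.0 in MPI MT and 1854 ± 66.4 in WT; -0.44 ± 0.07, limma adjusted p = 0.00234). SLC39A8, the manganese carrier, fell (784 ± 24.0 in MPI MT and 1141 ± 10.9 in WT; -0.54 ± 0.07). Of 3 measured galectins, lectins that read galactose on finished glycans, LGALS8 fell (-1.10 ± 0.08, limma adjusted p = 3.66e-05). It measured 928, 849 and 789 in the MPI MT libraries, against 1925, 1802 and 1781 in the WT libraries. LGALS1 (0.20 ± 0.11) and LGALS3 (0.17 ± 0.15) did not pass. Both passed as higher with the replicate block (limma adjusted p = 0.00588 for LGALS1 and 0.0416 for LGALS3). MAN2C1, which trims free glycans in the cytosol, did not pass (-0.08 ± 0.34).

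**Figure D5:**
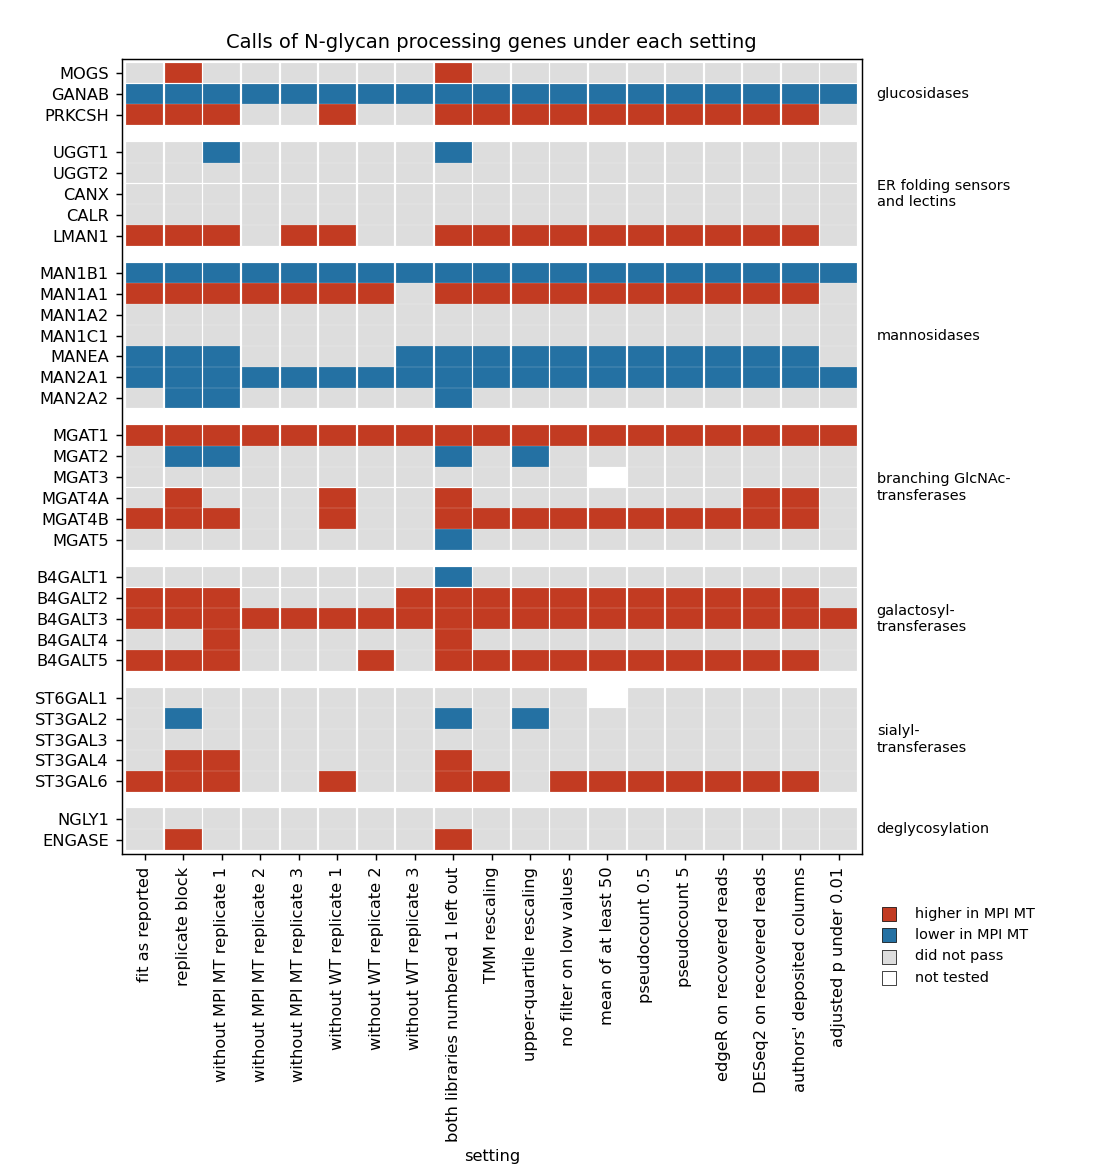
Call of each of the 33 genes (rows, by step) under the fit as reported and 18 other settings (columns): red higher in MPI MT, blue lower, grey did not pass, white not tested. GANAB, MAN1B1, MAN2A1, MGAT1 and B4GALT3 keep 1 colour in every column; no gene shows both red and blue.

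The calls with single libraries left out, and under the other settings, are shown in the plot of calls by setting. Of the 13 called members, 5 kept their call in all 18 other settings: GANAB, MAN1B1 and MAN2A1 as lower, MGAT1 and B4GALT3 as higher. The other 8 lost it when at least 1 library was left out, always with the same sign. Without MPI MT replicate 2, 3 members passed as higher and 3 as lower, where 1749 of all tested genes were higher and 2115 lower. Without WT replicate 3, 3 members passed as higher and 4 as lower, where 2066 of all tested genes were higher and 2157 lower. In the reported fit 2866 of all tested genes were higher and 2963 lower, so calls fell over the whole table in both fits. Without MPI MT replicate 1, 11 were higher and 7 lower, where 4415 of all 17893 tested genes were higher and 4291 lower. With both libraries numbered 1 left out, 14 were higher and 10 lower: the 13 called members and MOGS, UGGT1, MAN2A2, MGAT2, MGAT4A, MGAT5, B4GALT1, B4GALT4, ST3GAL2, ST3GAL4 and ENGASE. That fit held only the libraries numbered 2 and 3, and of all 17893 tested genes 4989 were higher in it and 4788 lower. Among 20 members that did not pass, 9 failed to pass in all settings in which they were tested: UGGT2, CANX, CALR, MAN1A2, MAN1C1, MGAT3, ST6GAL1, ST3GAL3 and NGLY1.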

How the data were processed

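RNA-seq of 3 MPI MT and 3 WT libraries of LX-2 cells was read from 1 table of 17911 genes. Its library columns are a signal, gene counts that the authors had divided by 1 size factor per library, as the deposited values show: 100% of them were whole multiples (within 0.01 read) of a smallest step, which gave back reads and depth (27037905 to 34970840 reads over the listed genes). The authors' deposited table also holds a log2 fold change and p-values per gene, made per the file headers for each gene, which served only as an alternative. Tools listed in the submitters' processing notes, without settings, are STAR 2.5.2b, Subread 1.5.2 with featureCounts, Trimmomatic 0.36 and DESeq2, and the build is GRCh38. Genes listed had a mean of at least 9.83, so those of lower level were not analysed here.

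The design had set edgeR for raw counts and limma for normalised values, and the table held normalised values. limma-trend (limma 3.58.1, R 4.3.3, robust, genotype only) was run on log2(value + 1) for the 17893 genes whose mean reached 10, with Benjamini-Hochberg adjustment over all of them and a threshold of 0.05. This scale understates changes of low genes. The code was tested on simulated data. edgeR 4.0.16 and DESeq2 1.42.0 on the recovered reads, scaling, filters, pseudocounts, left-out libraries, a stricter threshold and the replicate number as a block were alternatives. Deviations of same-numbered libraries from their genotype means correlated at 0.545, 0.189 and 0.276 over genes for numbers 1, 2 and 3, all above 0.1, so results with the block are given beside a call that it changes, while the reported fit has no block. This hint of pairing comes from the data, not the labels, and some libraries with unlike numbers correlated too (0.299 for MPI MT 2 with WT 3).

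TPM were computed from recovered reads and merged exons of GENCODE 29, which held 17828 of the genes; overlapping genes come from the same annotation. RefSeq promoters (GRCh38.p14) were matched by symbol. The members and the other lists were chosen with earlier results of these data known. All members are named, and of the other lists at most 3 called genes each with a mean of at least 100. LGALS1, LGALS3 and MAN2C1, which did not pass, were named after their values were seen, and so were the neighbours SQSTM1, PPOX and DCBLD2.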

Additional observations from a re-analysis of the deposited data

How the results depend on the processing

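No fold change of MPI or of a member that had passed changed sign under the alternatives, and the fall of MPI passed in all of them. Against 9 members higher and 4 lower in MPI MT, leaving out 1 library gave 3 to 11 higher and 3 to 7 lower. Over all genes, with 2866 higher and 2963 lower, it gave 1749 to 4415 higher and 2036 to 4291 lower. With the replicate block 13 members were higher and 7 lower, and 4494 genes higher and 4410 lower over the table. The block added MOGS, MAN2A2, MGAT2, MGAT4A, ST3GAL2, ST3GAL4 and ENGASE and changed no other call of a member. Without both libraries numbered 1 the counts were 14 and 10 members, and 4989 and 4788 genes. At an adjusted p under 0.01 they were 2 and 3 members, and 1513 and 1799 genes. The cause of these shifts was not tested, apart from the stricter threshold. On the recovered reads edgeR called 3007 genes higher and 2872 lower and DESeq2 2961 and 2924. Rescaling, filters and pseudocounts kept the members' counts at 8 or 9 higher and 4 to 6 lower. MGAT3 and ST6GAL1 rested on at most 41 reads per library, which limits what can be detected for them. Of the 13 calls of members, 8 were lost in at least 1 fit with a library left out. Such a fit holds fewer libraries, so a lost call does not show that it rested on the library left out.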
